A study of Homo sapiens with 4 samples.

Results

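The 6 genes CNTNAP2, LRP1B, CSMD1, PTPRD, DLG2 and RBFOX1 were followed across lamin B1 profiles of 2 prostate cancer cell lines. They are among the longest protein-coding genes of the human genome and best known from neurons, and the intervals used are 1.69 to 2.31 Mb long. They were chosen by name, and they hold 306 bins of 40 kb that lie whole inside these intervals, out of 71569 bins with a value in both lines. Lamin B1 was measured by chromatin immunoprecipitation and sequencing in LNCaP, an established line of prostate adenocarcinoma, and in VCaP, an established line from a bone metastasis of prostate cancer. Both lines were grown untreated in culture with serum and fixed with formaldehyde, and each has 1 lamin B1 library and 1 input library made without antibody, 4 libraries in all with no replicate. The value of a bin is the log2 ratio of lamin B1 over input, and each bin also carries a state, associated or not associated, from the hidden Markov model of the deposited tables. Nothing below has a replicate check, and no RNA was measured, so whether a gene is transcribed in these cells is not known here. Gene density around the genes was not counted, since no gene positions in hg19 were used.

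The intervals, in hg19, are chr7:145813000-148118000 for CNTNAP2 (56 bins), chr2:140988000-142889000 for LRP1B (47 bins), chr8:2792000-4852000 for CSMD1 (51 bins), chr9:8314000-10613000 for PTPRD (57 bins), chr11:83166000-85338000 for DLG2 (53 bins) and chr16:6069000-7763000 for RBFOX1 (42 bins). They take in exons and introns alike. CNTNAP2 and RBFOX1 are read from left to right along the chromosome and the other 4 genes from right to left. Every bin inside the genes and their 1 Mb flanks was 40 kb wide, with no gap between bins. The RefSeq model of RBFOX1 in GRCh38 is 2.47 Mb long, so part of what is counted here as its flank may belong to the gene.

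Lamin B1 is a filament protein that lines the inside of the nuclear envelope. Chromatin that touches it is mostly late replicating, poor in genes and low in transcription, and domains of such contact often span megabases. Very long genes of the nervous system lie in gene-poor sequence, and in cell types that do not use them they are often found at the nuclear edge. CNTNAP2 encodes an adhesion protein of the neurexin family that helps to hold potassium channels in place along axons. LRP1B encodes a giant endocytic receptor of the low-density lipoprotein receptor family. CSMD1 encodes a membrane protein of CUB and sushi domains that restrains complement. PTPRD encodes a receptor-type tyrosine phosphatase that also acts as a synaptic adhesion molecule. DLG2 encodes a scaffold of the postsynaptic density, and RBFOX1 an RNA-binding regulator of alternative splicing.

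Promoters of 4 of the 6 genes were found in the RefSeq table of GRCh38.p14, which gives windows of 300 bases that span a gene's start. The furthest upstream listed start of 3 of them is shown 5′ to 3′, because the lines differed near the start of PTPRD, DLG2 was outside the associated state over most of its length, and RBFOX1 was inside it throughout. Capitals mark each CG dinucleotide. The windows are chr9:10612953-10613252 on the minus strand for PTPRD, chr11:85628324-85628623 on the minus strand for DLG2 and chr16:6018774-6019073 on the plus strand for RBFOX1, all in GRCh38.p14.
PTPRD promoter: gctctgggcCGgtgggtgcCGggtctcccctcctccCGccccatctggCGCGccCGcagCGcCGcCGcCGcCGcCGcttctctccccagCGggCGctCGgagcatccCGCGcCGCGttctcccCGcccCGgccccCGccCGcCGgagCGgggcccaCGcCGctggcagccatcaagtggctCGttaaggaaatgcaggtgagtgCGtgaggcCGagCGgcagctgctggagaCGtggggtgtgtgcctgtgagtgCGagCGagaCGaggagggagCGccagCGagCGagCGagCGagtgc
DLG2 promoter: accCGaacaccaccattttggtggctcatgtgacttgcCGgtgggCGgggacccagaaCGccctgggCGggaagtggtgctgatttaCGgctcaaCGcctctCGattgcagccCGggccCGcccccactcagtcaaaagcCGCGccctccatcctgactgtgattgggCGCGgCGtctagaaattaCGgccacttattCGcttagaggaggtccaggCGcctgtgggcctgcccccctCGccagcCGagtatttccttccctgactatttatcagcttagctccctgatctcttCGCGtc
RBFOX1 promoter: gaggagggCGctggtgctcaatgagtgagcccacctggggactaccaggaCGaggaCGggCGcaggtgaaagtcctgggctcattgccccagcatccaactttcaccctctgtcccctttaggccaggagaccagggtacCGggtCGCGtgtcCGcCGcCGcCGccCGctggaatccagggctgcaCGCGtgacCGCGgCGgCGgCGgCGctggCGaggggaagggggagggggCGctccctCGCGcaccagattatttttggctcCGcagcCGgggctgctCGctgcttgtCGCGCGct
The PTPRD window held 40 CG dinucleotides at a GC content of 75.3%, the DLG2 window 22 at 61.0% and the RBFOX1 window 30 at 69.3%. The CNTNAP2 window, which is not printed, held 16 at 61.7%. Over all 35116 listed promoters the median was 14 CG dinucleotides and a GC content of 58.7%, and as many CG dinucleotides as in PTPRD, DLG2, RBFOX1 and CNTNAP2 were held by 7.61%, 37.7%, 22.4% and 47.5% of them. All 4 windows were thus above the median in CG count, and they came from genes on both sides of the lamin B1 range. A 40 kb bin is far longer than a promoter, so the enrichment cannot be read at these letters.

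The first question is how strongly each gene was bound. RBFOX1 and CSMD1 had the highest means and DLG2 and LRP1B the lowest of the 6 in both lines. PTPRD and CNTNAP2 lay between them, in a different order in each line. Levels are means over the bins of a gene, and ± is the noise SD of that mean, from the spread between bins 3 apart in the whole library, which share no averaged value. RBFOX1 averaged 0.84 ± 0.04 in LNCaP and 0.75 ± 0.06 in VCaP. CSMD1 had 0.78 ± 0.04 in LNCaP and 0.65 ± 0.05 in VCaP. These genes were the highest of the 6 in both libraries, and in neither did they differ from each other by more than 2 noise SDs.

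PTPRD, the phosphatase gene, averaged 0.59 ± 0.03 in LNCaP and 0.23 ± 0.05 in VCaP. CNTNAP2 had 0.34 ± 0.03 in LNCaP and 0.36 ± 0.05 in VCaP. PTPRD lay above CNTNAP2 in LNCaP by 0.25 with a noise SD of 0.05, whereas in VCaP CNTNAP2 lay above PTPRD by 0.13 with a noise SD of 0.07, which is within 2 noise SDs. DLG2, the scaffold gene, had 0.04 ± 0.04 in LNCaP and -0.32 ± 0.05 in VCaP. LRP1B, the receptor gene, had -0.06 ± 0.04 in LNCaP and -0.32 ± 0.06 in VCaP. DLG2 and LRP1B did not differ from each other beyond 2 noise SDs in either line.

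Of the 12 gene means, 8 lay above 0 by more than 2 noise SDs, 2 lay below, and the LNCaP means of LRP1B and DLG2 lay within noise of 0. Of all 1400 tiles of 2 Mb in the genome, 48.9% lay above 0 by the same rule in LNCaP and 57.5% in VCaP, and 26.9% and 17% lay below. The zero point of the 2 tables is not the same: over all bins the median was 0.06 in LNCaP and 0.19 in VCaP. With each line centred on that median the LNCaP mean of DLG2 changed sign, to -0.02, the LNCaP mean of LRP1B became -0.12, and the VCaP mean of PTPRD lay within noise at 0.04. Across the 6 genes the means of the lines had a Pearson r of 0.95 and a Spearman rho of 0.89, given as a description of 6 points.

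The levels were also set against those of the whole chromosome. RBFOX1 lies on chromosome 16, whose mean was 0.46 in LNCaP and 0.56 in VCaP, and it lay 0.37 and 0.19 above it. CSMD1 lies on chromosome 8, with means of 0.02 and 0.21, and it lay 0.75 and 0.45 above them, the largest excess of the 6 genes in both libraries. PTPRD lay 0.58 above chromosome 9 in LNCaP and 0.05 above it in VCaP. CNTNAP2 lay 0.30 above chromosome 7 in LNCaP and 0.18 above it in VCaP. LRP1B and DLG2 were on the other side, at -0.05 and -0.02 from the means of chromosomes 2 and 11 in LNCaP and at -0.45 and -0.57 in VCaP. CSMD1, RBFOX1 and CNTNAP2 thus lay above their chromosome in both lines, and LRP1B and DLG2 lay close to theirs in LNCaP and below it in VCaP.

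**Figure D1:**
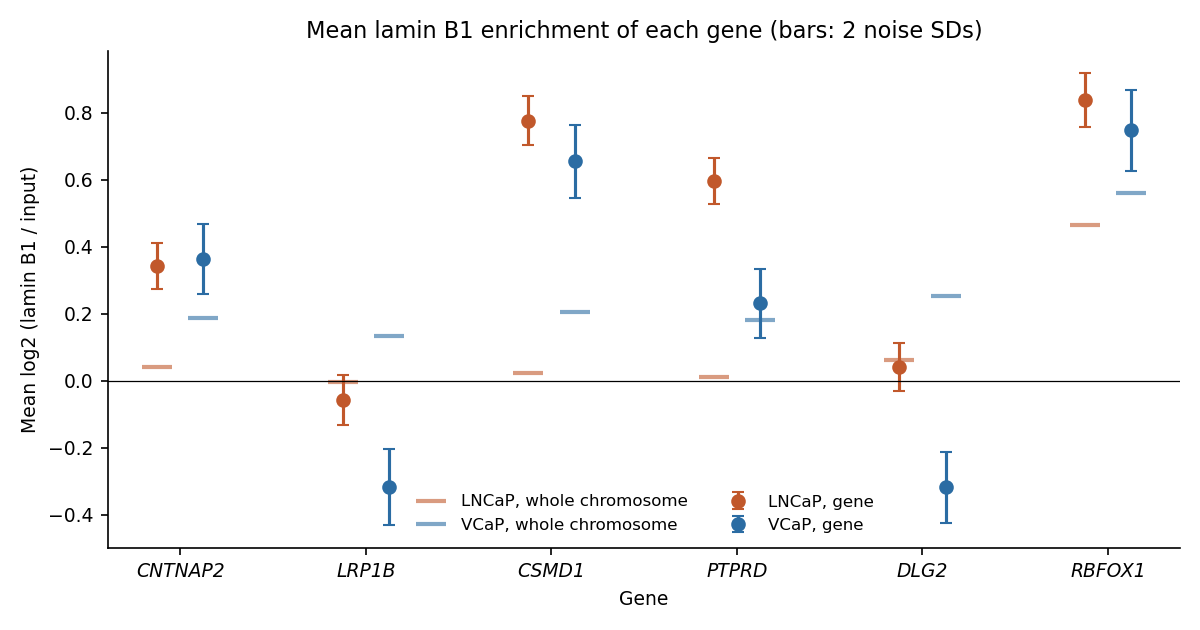
Mean log2 enrichment of lamin B1 over input (vertical axis) of the 6 genes in LNCaP (orange) and VCaP (blue). Points are means over the bins of a gene, bars are 2 noise SDs, and dashes are the mean of the whole chromosome. RBFOX1 and CSMD1 are highest in both lines, and LRP1B and DLG2 lie at or below 0 apart from the LNCaP mean of DLG2 at 0.04.

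In each line the share of associated bins followed the order of the means, with some genes tied at the same share. CSMD1 and RBFOX1 were in the associated state in all of their 51 and 42 bins in both lines, and LRP1B was in it in 0 of 47 bins in both lines. CNTNAP2 was associated in 44 of 56 bins in LNCaP (78.6%) and in 50 of 56 in VCaP (89.3%). PTPRD was associated in all 57 bins in LNCaP, as CSMD1 and RBFOX1 were, and in 25 of 57 in VCaP (43.9%). DLG2 was associated in 21 of 53 bins in LNCaP (39.6%) and in 0 of 53 in VCaP. Over the 306 bins together, 215 were associated in LNCaP (70.3%) and 168 in VCaP (54.9%), against 37.9% and 44.4% of all bins.

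Whole genes in 1 state are common enough to be read with care. Every bin was associated in 7.86% of 2 Mb tiles in LNCaP, in 10.6% in VCaP and in 2.5% in both lines, which was the case for 3, 2 and 2 of the 6 genes. No bin was associated in 27.3% of tiles in LNCaP, in 23.1% in VCaP and in 7.43% in either line, which was the case for 1, 2 and 1 of the 6 genes. RBFOX1 shares its state with most of chromosome 16, of which 91.7% of bins were associated in LNCaP and 85.7% in VCaP. For CSMD1 the shares of chromosome 8 were 37.5% and 47.4%, so the gene and the chromosome differ more there.

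Of the 306 bins, 161 were associated in both lines (52.6%), 84 in neither (27.5%), 54 in LNCaP only (17.6%) and 7 in VCaP only (2.29%). Of all bins the shares were 20.6%, 38.4%, 17.2% and 23.8%. The members thus held more bins associated in both lines and fewer in VCaP only than the genome, with the LNCaP-only share close to that of the genome. All 54 LNCaP-only bins lay in PTPRD (32), DLG2 (21) and CNTNAP2 (1), and all 7 VCaP-only bins lay in CNTNAP2.

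**Figure D2:**
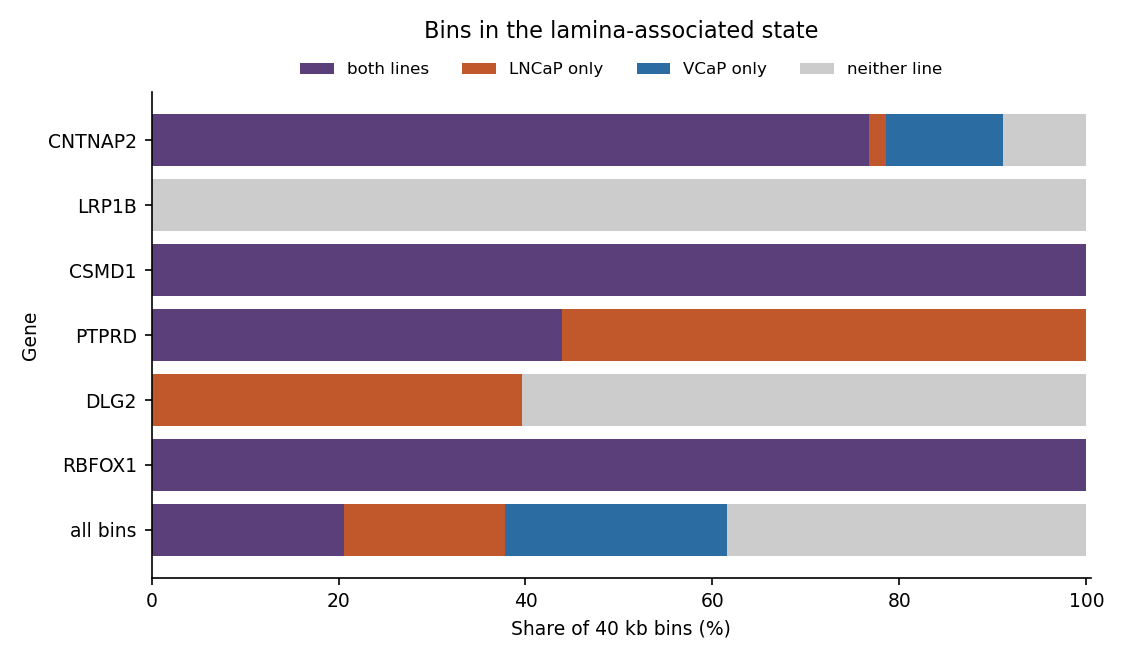
Share of 40 kb bins (horizontal axis, percent) of each gene, and of all bins, that were in the associated state in both lines, in LNCaP only, in VCaP only or in neither line. CSMD1 and RBFOX1 are associated throughout in both lines, LRP1B in neither, and the 32 LNCaP-only bins of PTPRD and 21 of DLG2 make up most of the bins that differ.

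The second comparison is between the lines within each gene. DLG2 and PTPRD differed most, both with more lamin B1 in LNCaP, followed by LRP1B. In DLG2 the VCaP minus LNCaP difference was -0.36 (noise SD 0.06), and LNCaP was the higher line in 52 of its 53 bins. In PTPRD it was -0.36 (noise SD 0.06), and LNCaP was higher in 50 of 57 bins. In LRP1B it was -0.26 (noise SD 0.07), and LNCaP was higher in 41 of 47 bins. These 3 genes passed 2 noise SDs under each of the 10 alternatives tried, and in the same direction.

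The difference was -0.12 in CSMD1 (noise SD 0.07), -0.09 in RBFOX1 (noise SD 0.07) and 0.02 in CNTNAP2 (noise SD 0.06). These 3 lay within 2 noise SDs, which does not show that the lines were alike in them. CSMD1 passed 2 noise SDs on the LNCaP side in 7 of the 10 alternatives, among them 4 without any centring or normalization: the 3-entry mean undone (-0.13, noise SD 0.05), the median of bins (-0.19, noise SD 0.07), noise from within the gene (noise SD 0.04) and noise from the differences (noise SD 0.05). Of all 2 Mb tiles, 27.5% were higher in LNCaP by the same rule and 44% were higher in VCaP, against 3 and 0 of the 6 genes. Over all bins the median difference was 0.10, and over the bins of the 6 genes it was -0.20. Relative to the median of each line, CSMD1 (-0.26) and RBFOX1 (-0.23) passed as well and CNTNAP2 turned to -0.11, within noise, so that 5 of the 6 genes were higher in LNCaP. With quantile normalization, and with each line centred on the median of the gene's own chromosome, 6 of 6 were.

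Single bins show where these differences sat. The noise SD of 1 bin's difference was 0.27, and a difference past 0.54, which is 2 of these, was found in 15 bins of PTPRD, 15 of DLG2, 5 of LRP1B and 3 of RBFOX1 on the LNCaP side. On the VCaP side it was found in 1 bin, in CSMD1. CNTNAP2 had no such bin in either direction, although 7 of its bins were associated in VCaP only and 1 in LNCaP only.

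**Figure D3:**
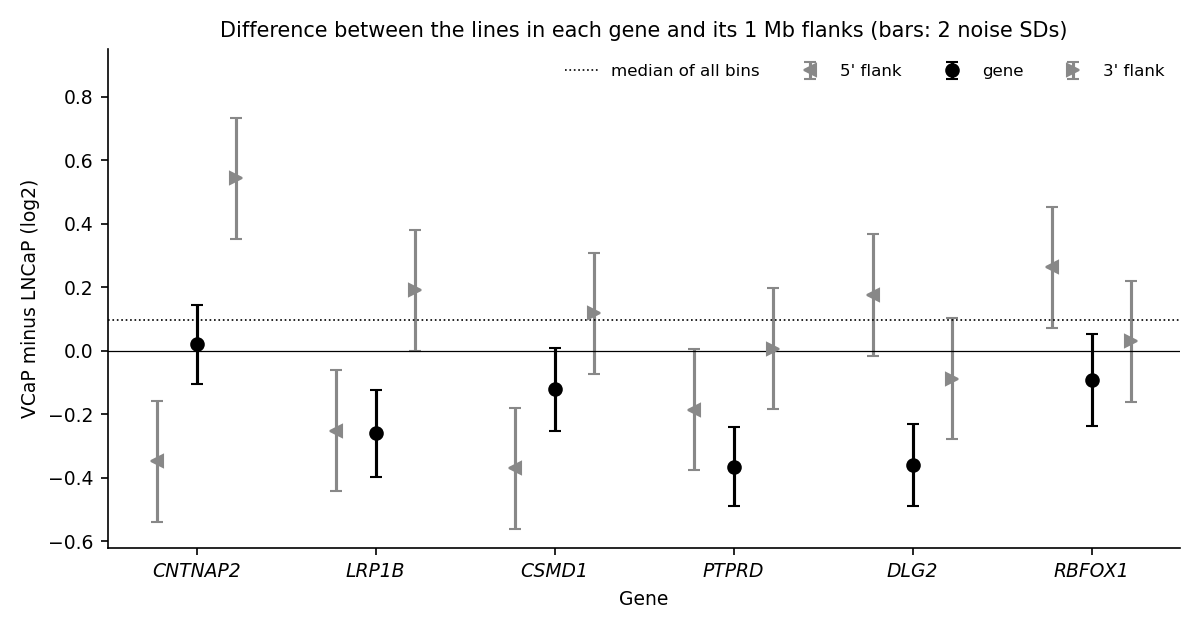
VCaP minus LNCaP difference in mean log2 enrichment (vertical axis) over each gene (circles) and its 1 Mb flanks on the 5′ side (left-pointing triangles) and 3′ side (right-pointing triangles). Bars are 2 noise SDs, and the dotted line is the median difference of all bins, 0.10. PTPRD and DLG2 lie at -0.36 and LRP1B at -0.26, and the 3′ flank of CNTNAP2 is the highest at 0.54.

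Some profiles changed along the gene and others were flat within noise, as those of PTPRD and LRP1B in LNCaP. CNTNAP2 had state borders inside the gene in both lines. Both lines entered the gene in the associated state, lost it 0.507 Mb from the 5′ end in LNCaP and 0.467 Mb from it in VCaP, and regained it at the same bin border, 0.707 Mb from the 5′ end, at position 146520000 of chromosome 7. The state was lost at 146320000 in LNCaP and at 146280000 in VCaP, 1 bin apart. The gap averaged 0.00013 over 5 bins in LNCaP and -0.03 over 6 bins in VCaP. With the gene cut into 5 equal parts from the 5′ end, parts 3 and 4 then reached 0.60 and 0.57 in LNCaP and 0.42 and 0.56 in VCaP. The lowest VCaP bin of the gene, at -0.25, lay in this gap, 0.567 Mb from the 5′ end.

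The 3′ end of CNTNAP2 separated the lines. LNCaP left the associated state at 147800000, where the mean of 5 bins went from 0.41 to -0.06, and stayed out of it to 152680000. VCaP went on in the state to 148440000, past the 3′ end of the gene. The run associated in VCaP only covered 640 kb from 147800001 to 148440000, 7 of its 16 bins inside the gene, with means of -0.08 in LNCaP and 0.30 in VCaP. Another such run of 440 kb, from 148640001 to 149080000 in the 3′ flank, had means of -0.21 and 0.53. Over the whole 1 Mb 3′ flank the means were -0.18 in LNCaP and 0.37 in VCaP, and over the 5′ flank 0.72 and 0.37. LNCaP thus stepped down across CNTNAP2 from its 5′ to its 3′ side, whereas VCaP had the same level on both sides.

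PTPRD was divided by 1 border in VCaP. In LNCaP the gene lay inside a domain of 5.08 Mb, from 7400001 to 12480000 of chromosome 9, and its 5 parts from the 5′ end ran at 0.63, 0.58, 0.60, 0.56 and 0.61. In VCaP they ran at 0.03, 0.11, 0.16, 0.40 and 0.48, and the associated state ended at 9320000, 1.293 Mb from the 5′ end. The 3′ part of the gene was therefore bound in both lines and the 5′ part in LNCaP only. At the 3′ end, the last 5 bins had means of 0.67 in LNCaP and 0.57 in VCaP. At the 5′ end, beside the CG-rich start printed above, the first 5 bins had means of 0.67 in LNCaP and -0.13 in VCaP.

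The LNCaP-only run of PTPRD spanned 1400 kb, from 9320001 to 10720000, with 32 of its 35 bins in the gene and means of 0.59 in LNCaP and 0.08 in VCaP. As with every run defined by the states, these means are a description. The lowest VCaP bin of the gene, at -0.31 against 0.70 in LNCaP, lay 0.113 Mb from the 5′ end. The VCaP mean inside this run was still slightly above 0. Of the 48 VCaP bins outside the state in the gene and its flanks, 38 were over 0, up to 0.40, so the state call and a value over 0 are not the same thing here.

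DLG2 had 2 associated blocks in LNCaP and none in VCaP. The first, from 84960001 to 85320000 of chromosome 11, covered 360 kb, with means of 0.24 in LNCaP and -0.01 in VCaP. It began 0.018 Mb inside the 5′ end of the gene, which is less than a bin of 40 kb. Averaging also moves features by about 40 kb, so this distance is not exact. The second, from 84040001 to 84520000, covered 480 kb, with means of 0.22 and -0.46. The blocks are defined by the states, which come from the same libraries, so their means describe them and test nothing. Between them LNCaP averaged -0.14 over 11 bins.

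The 5 parts of DLG2 from the 5′ end ran at 0.19, -0.08, 0.20, -0.11 and -0.01 in LNCaP and at -0.04, -0.57, -0.42, -0.37 and -0.18 in VCaP. In LNCaP parts 1 and 3 lay above 0 by more than 2 noise SDs (0.08 each) and the other 3 lay within noise of 0. In VCaP parts 2, 3 and 4 lay below 0 by more than 2 noise SDs (0.12 each), and parts 1 and 5 lay within noise of it. The lowest VCaP bin, at -0.82, lay 0.758 Mb from the 5′ end. The stretch of VCaP bins outside the state that holds DLG2 reached from 79400001 to 87120000, 7.72 Mb in all. The border at 87120000 was shared, since LNCaP also left the unassociated state there.

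LRP1B had no border inside the gene in either line. The stretch outside the state covered 4.52 Mb in LNCaP, from 138480001 to 143000000 of chromosome 2, and 5.92 Mb in VCaP, from 138320001 to 144240000. In LNCaP the associated state began at 143000000, 0.111 Mb before the 5′ end of the gene, with a run of 440 kb at a mean of 0.55, against -0.19 in VCaP. In LNCaP a bound domain thus stood next to the start of LRP1B without entering it, and in VCaP it was missing from the state calls.

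Within LRP1B the lowest stretch of 5 bins lay in nearly the same place in both lines, though neither stood out from the noise. The 5 bins with the lowest mean lay from 142280001 to 142480000 in LNCaP and from 142240001 to 142440000 in VCaP, 1 bin apart, at -0.20 and -0.66. With noise SDs of 0.12 and 0.17, neither lay below its gene mean, -0.06 and -0.32, by more than 2 noise SDs. The lowest single bins lay apart, 1.149 Mb from the 5′ end in LNCaP (-0.25) and 0.589 Mb from it in VCaP (-0.88). The 5 parts from the 5′ end ran at -0.06, -0.13, -0.05, 0.02 and -0.07 in LNCaP and at -0.36, -0.50, -0.30, -0.35 and -0.06 in VCaP. The LNCaP parts all lay within 2 noise SDs (0.08 to 0.09 each) of 0, and the first 4 VCaP parts lay below 0 by more than 2.

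CSMD1 and RBFOX1 had no state border inside the gene or in their flanks in either line. CSMD1 lay in a domain of 7.08 Mb in LNCaP, from 80001 to 7160000 of chromosome 8, and of 5.72 Mb in VCaP, from 600001 to 6320000. The LNCaP domain starts at the first bin with a value on the chromosome, so its border on that side is not seen. Part 5, at the 3′ end, had 0.48 in LNCaP against 0.77 to 0.89 in the other 4, whereas in VCaP it had 0.75 against 0.56 to 0.75. The last minus the first part was -0.29 in LNCaP (noise SD 0.11) and 0.20 in VCaP (noise SD 0.17), the latter within noise. With 3 parts in place of 5 the LNCaP value was -0.12 (noise SD 0.09), also within noise. In the last 5 bins the means were 0.36 in LNCaP and 0.79 in VCaP, and in the first 5 bins 0.80 and 0.54. The noise SD of these means is 0.12 in LNCaP and 0.17 in VCaP, and at the 5′ end the lines differed by less than 2 noise SDs.

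RBFOX1 lay in a domain of 11.76 Mb, from 80001 to 11840000 of chromosome 16, and both lines left the state at 11840000. The other end, 80001, is the first bin with a value on the chromosome, so no border can be read there. Its dip was near the 5′ end of the interval used, from which the distances below are counted. The RefSeq model of the gene is longer, at 2.47 Mb, so this end need not be the gene's start. Parts 1 and 2 had 0.46 and 0.43 in VCaP, against 0.95 to 1.00 in the other 3, and 0.83 and 0.64 in LNCaP, against 0.89 to 0.93. The lowest VCaP bin, at 0.01 against 0.82 in LNCaP, lay 0.271 Mb from the 5′ end, and the lowest LNCaP bin, at 0.31 against 0.18 in VCaP, lay 0.631 Mb from it. The first trough was thus deep in VCaP only and the second was present in both lines, and the bins of both kept the associated label. The 1 Mb before the interval had the highest flank mean of the 6 genes in each line, 0.88 in LNCaP and 1.14 in VCaP. Part of it may belong to the gene.

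**Figure D4:**
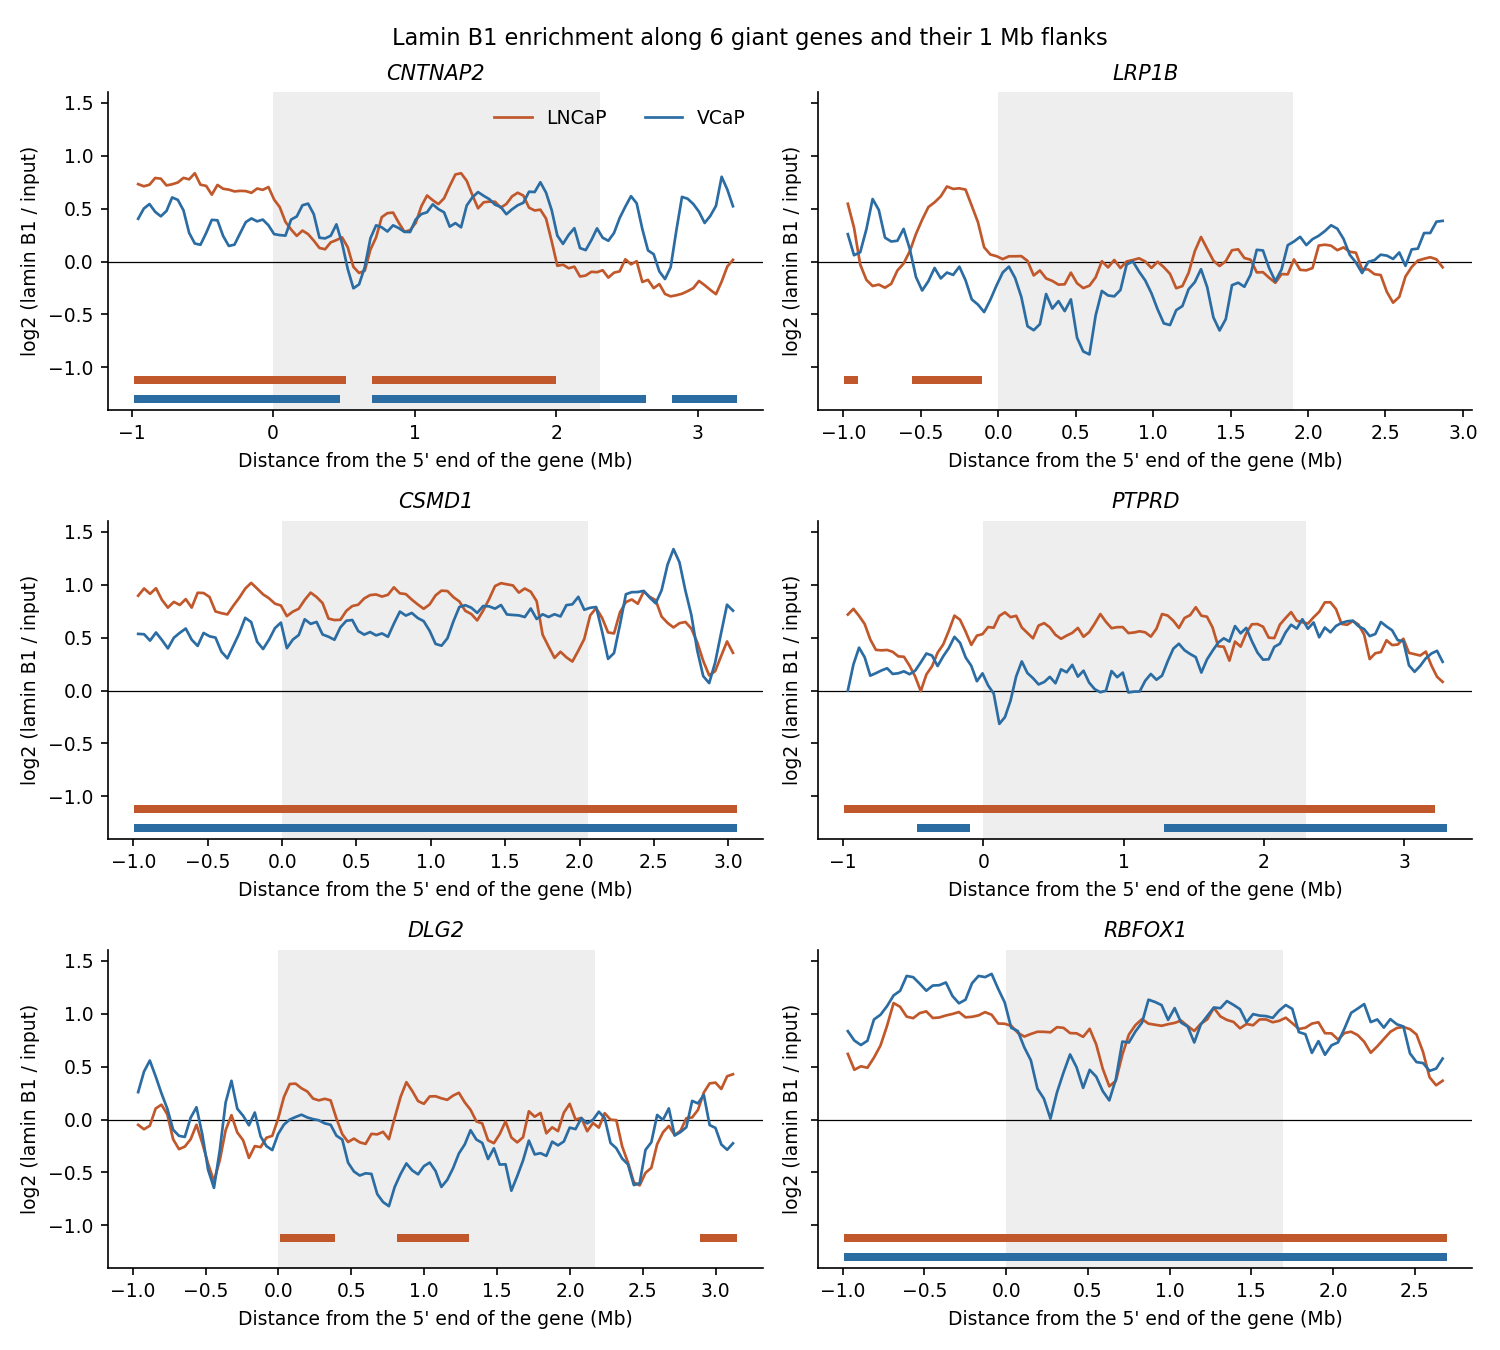
Log2 enrichment of lamin B1 over input (vertical axis) along each gene (grey) and its 1 Mb flanks, by distance from the 5′ end in Mb, in LNCaP (orange) and VCaP (blue). Strips below mark bins in the associated state. The dip of CNTNAP2 near 0.567 Mb is present in both lines, and PTPRD loses the state in VCaP over its first 1.293 Mb. LRP1B has no associated bin inside the gene, though its 5′ flank has some in LNCaP.

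Whether the lines varied together along a gene was described by the correlation over bins. Neighbouring bins share averaged values, and all bins of a line share its libraries, so these are given with no p. Pearson r was 0.68 in CNTNAP2 over 56 bins, 0.62 in RBFOX1 over 42, 0.41 in LRP1B over 47 and 0.39 in DLG2 over 53. It was -0.28 in CSMD1 over 51 bins and -0.22 in PTPRD over 57. Spearman rho was 0.69, 0.77, 0.40, 0.37, -0.16 and -0.13 in the same order. The correlation was thus positive along 4 of the 6 genes, more weakly in LRP1B and DLG2, and negative along CSMD1 and PTPRD. In LRP1B the LNCaP profile was flat within noise, which leaves little shape to compare. With 1 bin in 3, which share no averaged value, r ran from -0.26 to 0.67 and kept its sign in all 6 genes.

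**Figure D5:**
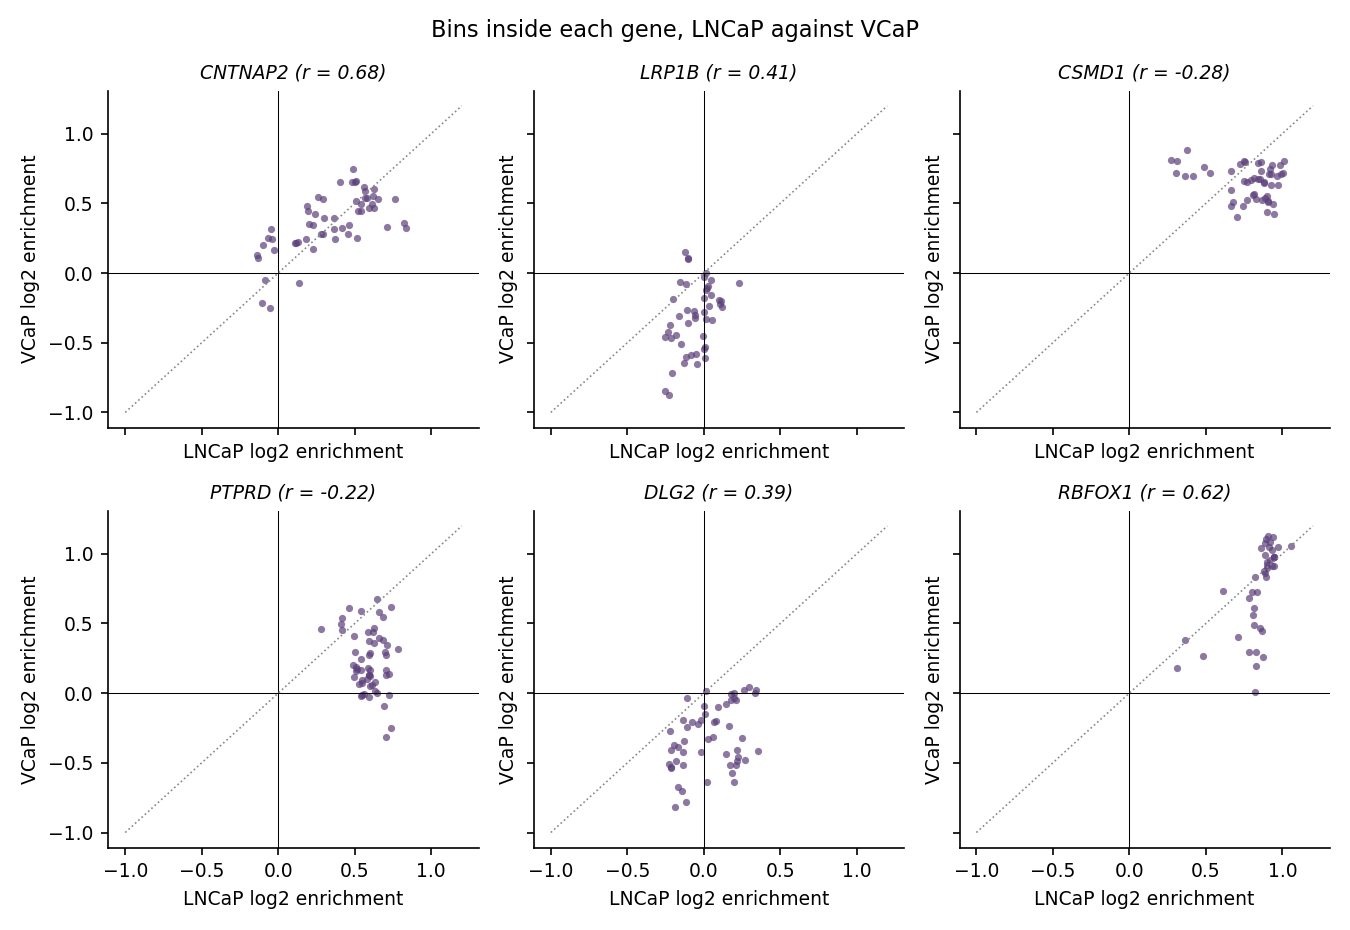
Log2 enrichment of each bin inside the 6 genes in LNCaP (horizontal axis) against VCaP (vertical axis), with the line of equal values dotted. CNTNAP2 (r = 0.68) and RBFOX1 (r = 0.62) run upward, whereas in CSMD1 (r = -0.28) a group of bins is low in LNCaP and high in VCaP, and in PTPRD (r = -0.22) VCaP spreads downward at nearly constant LNCaP values.

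The last comparison is of each gene with the 24 bins on either side. LRP1B was the gene that stood below its flanks in both lines, at a gene minus flanks value of -0.16 in LNCaP (noise SD 0.05) and -0.39 in VCaP (noise SD 0.08). In LNCaP the 5′ side was above the gene, at 0.25, while the 3′ side, at -0.04, was close to it. In VCaP both sides were above the gene, at -0.0026 and 0.15. Of 2 Mb tiles, 29% in LNCaP and 21.1% in VCaP lay below their flanks by the same rule.

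DLG2 was above its flanks in LNCaP, by 0.15 (noise SD 0.05), and below them in VCaP, at -0.25 (noise SD 0.08). PTPRD was above its flanks in LNCaP, by 0.14 (noise SD 0.05), and at -0.14 from them in VCaP (noise SD 0.08), which is within noise. Its sides were unlike in VCaP: PTPRD lay at -0.02 from its 5′ flank and at -0.26 from its 3′ flank (noise SD 0.09 each). RBFOX1 was below its flanks in VCaP, at -0.22 (noise SD 0.08), and level with them in LNCaP at 0.02. The VCaP value came from the 5′ side: RBFOX1 lay at -0.40 from its 5′ flank and at -0.03 from its 3′ flank (noise SD 0.10 each). Part of what is counted as flank of RBFOX1 may belong to the gene. CSMD1 and CNTNAP2 lay within 2 noise SDs of the mean of both flanks in both lines. In LNCaP this mean joins unlike sides: CNTNAP2 lay at -0.37 from its 5′ flank and 0.52 above its 3′ flank (noise SD 0.06 each), and CSMD1 lay 0.17 above its 3′ flank (noise SD 0.06). Of 2 Mb tiles, 28.3% in LNCaP and 20.9% in VCaP lay above their flanks. The call of LRP1B held with flanks of 500 kb and 2 Mb in both lines, whereas those of DLG2, PTPRD and RBFOX1 were each lost with 1 of these 2 sizes. Others were gained: with 2 Mb flanks CNTNAP2 (0.22, noise SD 0.04), CSMD1 (0.19, noise SD 0.04) and RBFOX1 (0.23, noise SD 0.05) lay above their flanks in LNCaP, and with 500 kb flanks PTPRD lay below its flanks in VCaP (-0.23, noise SD 0.10).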

How the data were processed

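The deposited log2 values are the enrichment of lamin B1 ChIP over input of the same line in 40 kb bins, 1 table per line, and the other deposited tables give a hidden Markov model state per bin, as their names say. STAR and hg19 are named in the submitters' processing notes, and scaling, smoothing and filters are not given in the sources used here. The first 2 entries of each chromosome are empty. Undoing a trailing mean of 3 entries brought the median absolute value of entries wider than a bin, 194 in LNCaP and 212 in VCaP, from 0.21 and 0.33 to 0.01 in both, so each value was read as averaged over its entry and the preceding 2, which moves features about 40 kb along the chromosome. Read depth is unknown, so no counting interval is given.

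Noise is the median absolute difference of bins 3 apart, times 1.4826 and divided by the square root of 2, and a mean of several bins counts 1 separate value per 3. For differences, the noise of both lines was added in squares. These differences also hold true variation along the chromosome, and the noise says nothing of replicate cultures. With 1 library pair per line no test was made, and "past 2 noise SDs" is a description. Tiles are 50 adjacent bins (2 Mb). All 6 genes are named. The strands of CNTNAP2, PTPRD, DLG2 and RBFOX1 come from the RefSeq table and those of LRP1B and CSMD1 from general knowledge. Members, rules and alternatives were chosen with earlier results of these data known. A list of other giant neuronal genes had been planned and was not analysed here, since no hg19 annotation was used. The undoing of the 3-entry mean, the noise estimate and the calling of tile differences were checked on simulated data with independent random noise. Flanks, parts, borders and correlations were not checked this way. The versions were numpy 2.4.6, matplotlib 3.10.9, scipy 1.17.1 and pandas 2.3.3, under Python 3.11.15.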

Additional observations from a re-analysis of the deposited data

Results flagged for a closer look

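In 5 places the means of LNCaP and VCaP lay on opposite sides of 0. With 1 library pair per line this difference was not tested. The 3′ flank of CNTNAP2 had -0.18 in LNCaP and 0.37 in VCaP, each past 2 noise SDs from 0 (0.05 and 0.08 per SD). The gene DLG2 had 0.041 in LNCaP and -0.32 in VCaP, and only the VCaP value was past 2 noise SDs. The 5′ flank of DLG2 had -0.17 in LNCaP and 0.0069 in VCaP, where only the LNCaP value was. The 5′ flank of LRP1B had 0.25 in LNCaP and -0.0026 in VCaP, again with only LNCaP past noise. The 3′ flank of LRP1B had -0.038 in LNCaP and 0.15 in VCaP, both within 2 noise SDs. So the CNTNAP2 3′ flank was the place where both signs held against the noise.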

How the results depend on the processing

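Of 258 alternative values for single genes, 213 kept their direction and their side of 2 noise SDs or moved little, 18 became stronger, 7 weaker, 7 shares moved and 13 changed sign. Of 27 alternative counts of genes, 24 stayed within 1.5 times the main count. The count of genes that differ between the lines was 3, and it was 5 after centring both lines on their genome medians, 6 with quantile normalization and 6 centred on the chromosome median, the last chosen after seeing the data; all were higher in LNCaP. It was 4 with the 3-entry mean undone, the median of bins, noise from within the gene or noise from the differences. Noise from the differences, like the chromosome median, was not a planned setting. CSMD1 was the gene gained in each. The cause was not tested. The difference between the lines in CNTNAP2 turned to -0.11 with genome median centring, -0.15 with quantile normalization and -0.15 with chromosome median centring. The LNCaP level of DLG2 turned to -0.017 and -0.029 when centred on the genome or chromosome median. Gene against flanks turned for CNTNAP2 in VCaP to 0.00083 with the 3-entry mean undone, 0.081 with 500 kb flanks and 0.058 with 2 Mb flanks, for CSMD1 in LNCaP to -0.037 and RBFOX1 in LNCaP to -0.073 with 500 kb flanks, and for PTPRD in VCaP to 0.021 with 2 Mb flanks. The last minus the first part of a gene, of 3 parts in place of 5, turned in CNTNAP2 to 0.085 and in LRP1B to 0.096, both in LNCaP; the cause was not tested. Called over 0, PTPRD was 84.2% associated in VCaP and LRP1B 42.6% in LNCaP. Called over 0.5, CNTNAP2 was 37.5% in LNCaP and 28.6% in VCaP, PTPRD 12.3% in VCaP, DLG2 0% in LNCaP and RBFOX1 71.4% in VCaP. No paired analysis was possible because there is 1 library of each kind, and no library could be left out. Depth is unknown.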
